A study of Drosophila melanogaster with 3 samples.

Results

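The nuclear genes for the proteins of the mitochondrial ribosome were followed through an anti-GFP chromatin immunoprecipitation of Tango in whole Drosophila melanogaster embryos. The genes were taken by name: every gene annotated as protein-coding by Ensembl (release 115, on the BDGP release 6 assembly) with a symbol that starts with mRpL (large subunit) or mRpS (small subunit). This gave 73 of 13968 protein-coding genes, 47 of the large and 26 of the small subunit. The rule uses no measured value, and ribosomal protein genes under older names, such as tko and bonsai, are counted apart. The embryos were 0 to 24 h old and of the strain tgo-GFP, which expresses a fusion of Tango with eGFP from an insertion targeting tgo. All samples form 1 group of 3 biological replicates, as separate biosamples that the labels give the same donor identifier, and no untagged or input sample was analysed here. Peaks that do not depend on Tango therefore cannot be told apart from those that do. Whole embryos mix all cell types, so a peak in few cells and a weak peak in many cells cannot be told apart.

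The mitochondrial ribosome makes the few proteins encoded in mitochondrial DNA, which are subunits of the respiratory chain and of ATP synthase. Its own proteins are encoded in the nucleus, made in the cytosol and imported. Tango, the counterpart of mammalian ARNT, belongs to the bHLH-PAS transcription factors and pairs with Single-minded, Trachealess, Similar or Spineless. Similar is the fly counterpart of the hypoxia-inducible factor subunit HIF-alpha. The pairs with Single-minded, Trachealess and Similar are known to bind sites that hold ACGTG, and the pair with Spineless sites that hold GCGTG.

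A minority of the genes held a reproducible anti-GFP peak, and most such peaks lay in the short AT-rich stretch between the gene and a neighbour transcribed the other way. A peak is placed here at its summit. The thresholded lists hold the peaks with an irreproducible discovery rate (IDR), a measure of how well peaks recur between paired rankings, of at most 0.01. Summits of the 3 thresholded lists no more than 150 bp apart were joined, and a region present in at least 2 lists is called a core region, with its principal summit the one that stands highest in its own list. Of the 73 genes, 21 had a core region in their body or the 2 kb before it (28.8%, exact 95% interval 18.8 to 40.6%), against 23.1% of all protein-coding genes. The interval contains the share of all genes. For 15 of the 73 (20.5%) a region was in all 3 lists, against 17.5% of all genes. The start site nearest to the core region was the gene's own for 7 of the 73 (9.59%, interval 3.94 to 18.8%), against 15.2% of all genes. All intervals cover counting error only.

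The sequences under the summits show what these places look like. Each run is 100 bp from the dm6 reference, written 5′ to 3′ on the strand of the ribosomal protein gene. Capitals mark TATAA or ACGTG on either strand, so that TTATA and CACGT are the same letters read from the other strand. The first set holds 4 genes whose own start is nearest to the summit. All 4 also have a divergent neighbour, so a nearer start does not assign the peak to the ribosomal protein gene. The principal summit of mRpL32 lay at -110 from its own start and at -154 from that of its neighbour qless (negative is upstream). They lie at chr3R:31252712-31252811 (mRpL32), chr3L:4364426-4364525 (mRpS6), chr3L:16004955-16005054 (mRpS31) and chr3L:18106402-18106501 (mRpS26), all on the plus strand.
mRpL32: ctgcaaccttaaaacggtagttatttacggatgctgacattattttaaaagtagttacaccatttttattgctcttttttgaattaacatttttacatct
mRpS6: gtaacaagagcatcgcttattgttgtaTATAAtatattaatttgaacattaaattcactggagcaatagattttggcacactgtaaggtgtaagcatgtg
mRpS31: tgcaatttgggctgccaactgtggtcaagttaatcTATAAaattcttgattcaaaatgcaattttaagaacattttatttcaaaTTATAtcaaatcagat
mRpS26: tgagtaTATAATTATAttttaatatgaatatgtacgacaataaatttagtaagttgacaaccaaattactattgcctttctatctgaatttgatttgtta

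The second set holds 5 genes with strong summits closer to the divergent neighbour's start, and was chosen after the values were seen. It is shown because most of the strongest peaks are of this kind. The windows lie at chr2L:13835409-13835508 (mRpS23, minus strand), chr3R:15229479-15229578 (mRpS10, plus strand), chr3L:13018101-13018200 (mRpL20, minus strand), chr2L:4850498-4850597 (mRpS2, minus strand) and chr2L:4945423-4945522 (mRpL24, minus strand).
mRpS23: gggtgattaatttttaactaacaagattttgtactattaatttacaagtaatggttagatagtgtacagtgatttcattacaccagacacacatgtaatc
mRpS10: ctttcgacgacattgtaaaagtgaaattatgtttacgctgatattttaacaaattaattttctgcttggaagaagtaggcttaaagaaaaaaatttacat
mRpL20: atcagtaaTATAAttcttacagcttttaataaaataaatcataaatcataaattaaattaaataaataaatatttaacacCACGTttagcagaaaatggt
mRpS2: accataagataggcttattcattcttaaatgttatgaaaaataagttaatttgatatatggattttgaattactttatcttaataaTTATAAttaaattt
mRpL24: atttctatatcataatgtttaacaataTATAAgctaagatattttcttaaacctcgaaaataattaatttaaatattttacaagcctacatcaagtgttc

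The 9 printed windows hold between 17 and 32% G and C. Runs of A and T fill most of them, and TATAA is in 6 of the 9. The letters ACGTG, known from Tango's pairs, are in 1 of the 9, that of mRpL20.

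The thresholded lists held 3617, 4759 and 3027 peaks in replicates 1, 2 and 3, or 3801 ± 881 (SD, n = 3), with 3605, 4758 and 3026 distinct intervals on the major chromosome arms. Joining their summits gave 5569 regions, of which 3463 were core regions and 2270 were in all 3 lists. Replicate 3 had the shortest list. The sources used here do not give read counts, and the depth behind each peak is unknown.

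Among large-subunit genes, mRpL41 had the strongest peak. Its summit ranked 1, 4 and 6 by the authors' signal value in replicates 1, 2 and 3, where rank 1 is the strongest of the list, and lay at positions -131, -131 and -133 relative to its nearest annotated start, negative being upstream. The region runs from 15217575 to 15217904 on 2R. All 3 replicates thus placed it near the top of their lists and within 2 bp of each other. mRpL23 ranked 18, 30 and 20. The bacterial relative of its protein lines the exit of the peptide tunnel. Its summits at 81, 83 and 57 bp downstream of the start fell in its 5′ UTR on 3L (region 2373451 to 2373756), and it was the only one of the 21 genes with its strongest summit in its own transcribed exon sequence. CG9004 starts 24 bp away on the other strand.

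mRpL20 and mRpL24, also large-subunit genes, had summits between their start and a divergent one. mRpL20 stood at percentiles 96.7, 97.7 and 96.6 of the 3 lists, where 100 is the strongest peak. Its summits lay at -271, -284 and -271, and the principal one lay 115 bp upstream of Icmt, a carboxyl methyltransferase gene. mRpL24 stood at percentiles 95.3, 97.3 and 93.2, with summits at -130, -112 and -133. The protein's bacterial relative also sits at the tunnel exit. The start of betaggt-I, for a prenyltransferase subunit, was 6 bp closer to the principal summit than that of mRpL24. In both genes the neighbour's start was the nearer in all 3 replicates.

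The small subunit had 3 genes of like strength. mRpS23 ranked 8, 6 and 7, with summits at -388, -387 and -400, and the neighbour CenG1A, for a protein of the Arf GTPase-activating family, started 105 bp from the principal summit. mRpS10, whose bacterial relative is in the head of the small subunit, ranked 9, 8 and 16, with summits at -129, -136 and -135. Its neighbour Art3, an arginine methyltransferase gene, was 15 bp closer to the principal summit than mRpS10. mRpS2 stood at percentiles 96.3, 97.2 and 92.5, with summits at -138, -129 and -143, and Mon1, which acts in endosome maturation, was 36 bp closer. In each of these genes all 3 replicates placed the summit nearer to the neighbour.

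mRpL46 completed the 8 genes whose mean percentile was above 95. Its percentiles were 95.6, 96.6 and 94.0, but the summits lay at -1943, -1912 and -1914, near the start of PolD2, a DNA polymerase delta subunit gene, so that it counts for mRpL46 through the 2 kb rule. mRpL46 and its divergent neighbour CG2021 start 28 bp apart.

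**Figure D1:**
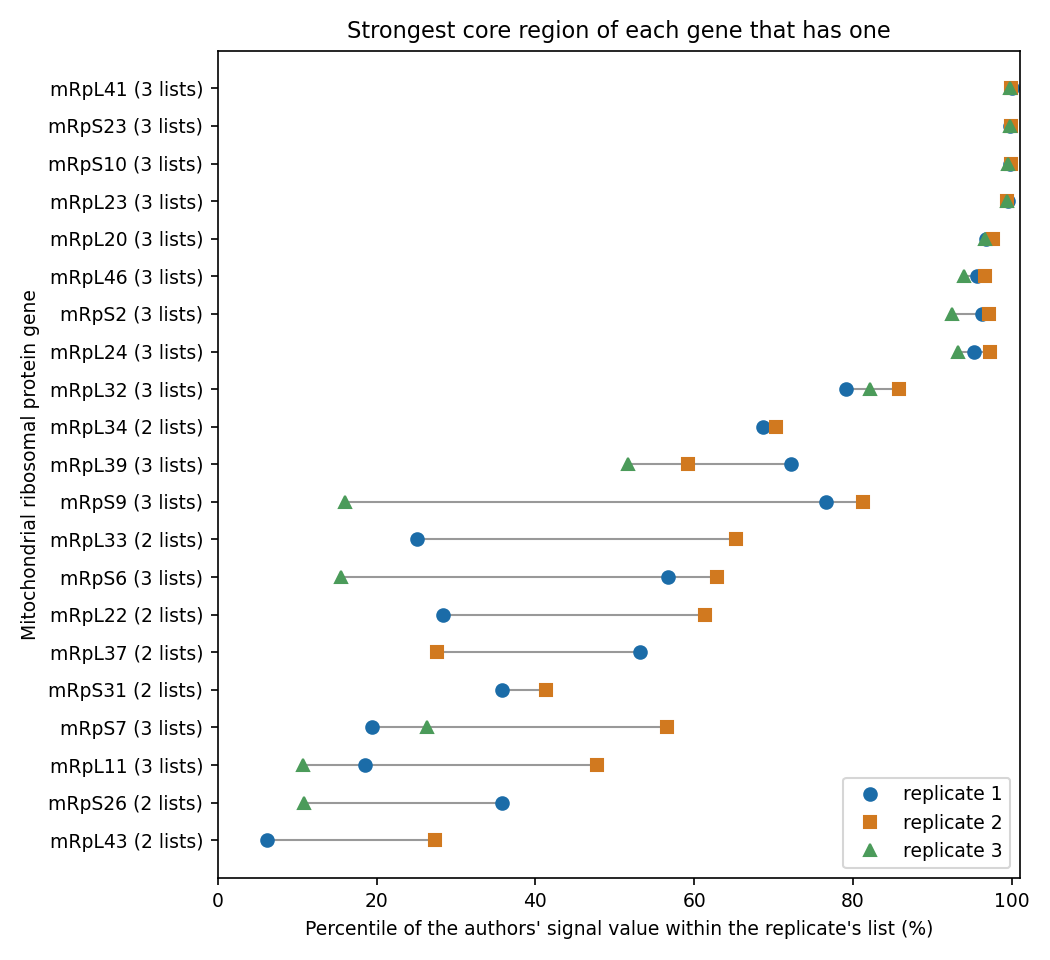
Percentile of the authors' signal value within each replicate's thresholded list (x axis, %, 100 is the strongest peak) for the strongest core region of the 21 genes that have one (y axis, with the number of lists that hold it); points are replicates and lines join their range. The 8 genes at the top lie at 92.5 or higher in every replicate, while mRpS9 runs from 16.0 to 81.3 and mRpS6 from 15.5 to 62.9.

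Below the top, 4 genes had a mean percentile between 50 and 95 and 9 were under 50. mRpL32 stood at percentiles 79.1, 85.7 and 82.1 with summits at -85, -110 and -109, nearest its own start in all 3 replicates. In yeast its relative is matured by an inner-membrane protease. Its divergent neighbour qless, for a coenzyme Q synthesis enzyme, starts 264 bp away. mRpL39 stood at 72.2, 59.2 and 51.6, with summits at -150, -133 and -139. The proteasome subunit gene Prosbeta2 was nearest in replicate 1 and mRpL39 itself in replicates 2 and 3. mRpS6, for a protein of the small subunit's platform, stood at 56.7, 62.9 and 15.5, so that replicate 3 alone put it near the bottom of its list. Its summits at -118, -74 and -89 were all nearest to mRpS6.

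A pair of genes with a promoter region in all 3 lists stood lower. mRpS7 stood at 19.4, 56.6 and 26.4, with summits at -129, -207 and -209. The first lay nearer to mRpS7 and the others nearer to Cdk1, the mitotic kinase gene. mRpL11, whose bacterial relative forms the base of the stalk that binds translation factors, stood at 18.5, 47.7 and 10.8. Its summits at -101 and -108 in replicates 1 and 2 lay in the 126 bp between it and HtrA2, a mitochondrial protease gene, and that at -217 in replicate 3 lay beyond the HtrA2 start. Among members with a region in 3 lists the SD of the percentile over replicates had a median of 2.26 and ran from 0.0554 to 36.4.

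For 7 genes the strongest core region was in 2 lists. It was missing from replicate 3 in 6 of them and from replicate 2 in 1. mRpL34 stood at 68.7 and 70.4 in replicates 1 and 2 with summits at -201 and -173, nearest Dg (the dystroglycan gene) in replicate 1 and mRpL34 in replicate 2. mRpL37 stood at 53.1 and 27.6 with summits at -186 and -96. mRpS31 stood at 35.7 and 41.4 with summits at -163 and -188, nearest its own start in both. mRpL43 stood at 6.20 and 27.4 with summits at -106 and -176, nearest mRpL43 in replicate 1 and CG30183 in replicate 2. These 4 were weak or moderate promoter peaks without a passing call in replicate 3, in whose ranked list each still had a candidate, with scaled IDR scores (higher is more reproducible) of 699 for mRpL34, 662 for mRpL37, 550 for mRpS31 and 771 for mRpL43 against the lists' limit of 830. mRpS26 was the gene without a call in replicate 2. It stood at 35.8 and 10.9 in replicates 1 and 3, with summits at -127 and -198, both nearest its own start.

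The other 2-list regions lay far from the ribosomal protein gene. That of mRpL33 was at percentiles 25.1 and 65.3 in replicates 1 and 2, at -2025 and -1996, in an intron of norpA, the phospholipase C gene of vision, and counts for mRpL33 through the second of these summits. That of mRpL22 was at 28.3 and 61.3, at -1641 and -1650, in an intron of if, an integrin gene. A further gene, mRpS9, had its region inside its own body of 13391 bp, where the annotation places an intron of mRpS9 and one of wtrw, a TRP channel gene. Its percentiles were 76.6, 81.3 and 16.0, and the summits lay 7027, 7037 and 6991 bp downstream of the mRpS9 start. mRpS9 is 1 of 3 members over 2000 bp long, and the only member without a divergent neighbour to have a core region.

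mRpS9 and mRpL34 were the members with more than 1 core region. The second of mRpS9, 9851 bp into the gene, was in replicates 1 and 2 at percentiles 36.05 and 67.01. The second of mRpL34 was in all 3 lists at 27.4, 52.1 and 32.5. It lay at -1238, inside Dg and 854 bp downstream of its start, and is why mRpL34 counts among the 15 genes with a region in all 3 lists although its promoter region is in 2.

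Summits of most of the 21 genes lay in a like place, while their percentiles ranged widely. Of the 21 strongest core regions, 15 had the summit in the 300 bp upstream of the gene's start, from -284 to -74 with a median of -136, and all 15 lay between the gene's start and a divergent one. The 300 bp limit itself bounds this range. In 9 of those 15 the neighbour's start was the nearer. Over all 21, another gene's start was nearest in 14, and in 12 of these that gene was the divergent neighbour. In 13 the summit lay within 300 bp of both the own and the divergent start. The distances to these starts differed by 50 bp or less in 9 genes, so the nearer start is often a near tie. These counts over strongest core regions were not made for all protein-coding genes, so they describe the 21 genes only. A like count, of genes with a summit between the paired starts, is given below for all genes by spacing. In 5 genes, among them mRpL34, mRpL39, mRpL43 and mRpS7, the replicates differed in which start was nearest. The largest distance between replicates' summits of one region had a median of 26 bp and reached 116 bp. Of all 73 genes, 16 (21.9%, exact 95% interval 13.1 to 33.1%) had a core region no more than 300 bp from their own start, against 12.4% of all genes.

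**Figure D2:**
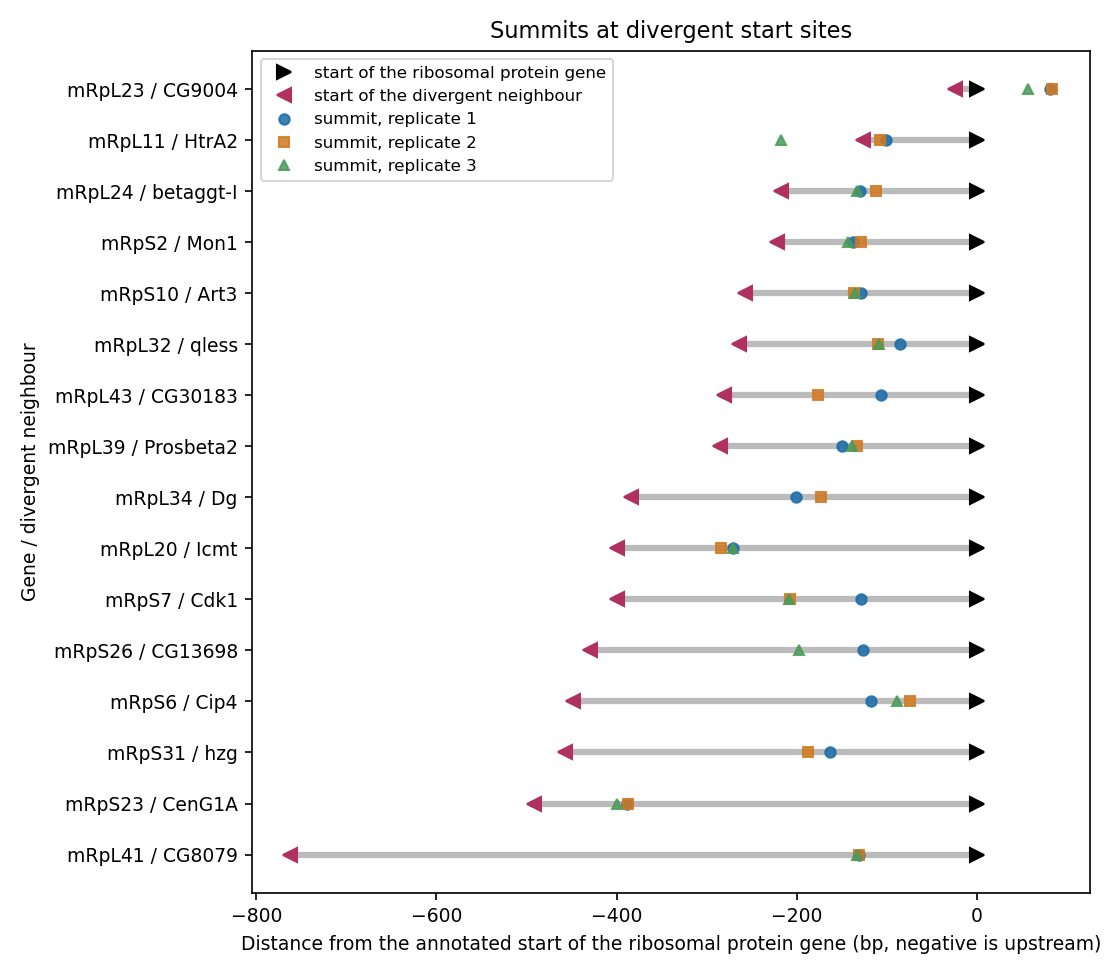
Summits of each replicate (circles, squares and triangles) by distance from the annotated start of the ribosomal protein gene (x axis, bp, negative is upstream) for 16 genes with a core region near their start and a divergent neighbour (y axis; mRpL37 is not drawn); arrowheads mark the start sites and the grey bar the stretch between them. Summits of most pairs lie inside the bar, those of mRpL23 lie in the gene, and the replicate 3 summit of mRpL11 lies beyond the start of HtrA2.

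Paired promoters are common among these genes by annotation alone. A divergent neighbour, taken as a protein-coding gene on the other strand whose start lies up to 1000 bp upstream, was present for 56 of the 73 genes (76.7%), against 58.7% of cytosolic ribosomal protein genes, 43.75% of respiratory chain genes and 33.3% of all protein-coding genes. A core region was in 20 of the 56 genes with such a neighbour (35.7%, interval 23.4 to 49.6%), against 33.8% of all genes with one. It was in 1 of the 17 without one (5.88%, interval 0.149 to 28.7%), against 17.7% of all such genes. In both arrangements the interval contained the share of all genes.

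Counts near the start site were lower. A core region within 300 bp of the gene's own start was in 16 of the 56 (28.6%, interval 17.3 to 42.2%), against 23.1% of all genes with a divergent neighbour. A core region nearest to the gene's own start was in 7 of the 56 (12.5%), against 18.1%, and in 0 of the 17 without such a neighbour, against 13.7%. The genes are short, with a median of 909 bp against 2164.5 bp for all genes. Among genes up to 2000 bp long a core region was in 20 of 70 (28.6%, interval 18.4 to 40.6%), against 13.7% of all genes of that length, which lies under the interval, and one nearest the own start in 7 of 70, against 7.1%. This comparison matches length only and leaves in the difference in how often a divergent neighbour is present.

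The distance between the paired starts was a further way to sort the genes, with bins chosen after the data were seen. Where the starts were up to 150 bp apart, 3 of 19 genes had a core region, against 26.5% of all genes so spaced. Over 150 and up to 500 bp it was 16 of 32, against 39.4%, and over 500 and up to 1000 bp 1 of 5, against 29.2%. The summit lay between the starts in 14 of the 32 genes of the middle bin (43.75%), against 29.5% of all genes in it. In the closest bin it did so in 1 of 19 (5.26%), against 4.28%, and in the widest in 1 of 5 (20%), against 17.3%. No intervals were computed for these shares, and the differences were not tested. The median spacing was 337.5 bp for the 20 genes with a core region and 260.5 bp for the 36 without one. The groups overlapped over nearly the whole range.

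**Figure D3:**
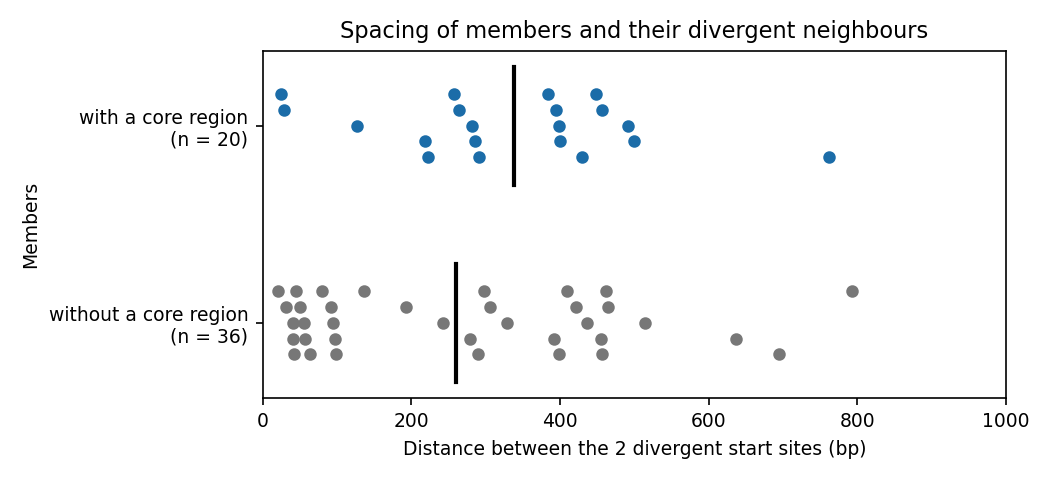
Distance in bp between the paired start sites (x axis) of the 56 ribosomal protein genes with a divergent neighbour, with (n = 20) and without (n = 36) a core region; each point is a gene, its height within a row has no meaning, and the black line is the median. The genes with a core region have a median of 337.5 bp and those without one 260.5 bp, and the rows overlap.

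Replicate by replicate, 24 of the 73 genes had a thresholded summit in the body or 2 kb upstream in replicate 1 (32.9%), against 24.2% of all genes. In replicate 2 it was 25 (34.2%), against 27.2%, and in replicate 3 it was 16 (21.9%), against 20.3%. The mean was 29.7 ± 6.76% (SD, n = 3), and the difference from all genes was 5.78 ± 3.67 percentage points, smallest in replicate 3. It was positive in all 3 replicates, but an exact paired sign-flip test over 3 replicates (two-sided) cannot give a p under 0.25, which is what it gave. Counting a summit in any list, 30 of the 73 genes (41.1%) had one, against 30.4%.

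The proteins of the cytosolic ribosome served as the closest comparison. A summit was found for 29.7 ± 6.76% of mitochondrial ribosomal protein genes and for 54.7 ± 8.30% of the 92 genes named RpL or RpS (SD, n = 3). The difference was -23.6, -27.7 and -23.7 percentage points in replicates 1, 2 and 3, or -25.0 ± 2.32 (exact paired sign-flip test, two-sided, p = 0.25, the smallest possible). The mitochondrial set was lower in 3 of 3 replicates, and the difference exceeded its spread between them. It was -11.3 ± 3.73 points with peaks above the median signal of their list and -15.0 ± 2.91 points with 10 kb on either side of the gene body. Counting summits nearest the gene's own start widened the gap to -33.6 ± 5.90 points, with 12.8 ± 2.85% of mitochondrial and 46.4 ± 8.30% of cytosolic ribosomal protein genes.

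Genes of the respiratory chain, whose complexes hold the products of the mitochondrial ribosome, lay closer. The 80 genes named ND-, COX, UQCR or ATPsyn had a summit in 22.1 ± 2.89%, and the difference of the mitochondrial ribosomal protein genes from them was 9.13, 10.5 and 3.17 points, or 7.60 ± 3.90 (exact paired sign-flip test, two-sided, p = 0.25). For summits nearest the own start it was -0.131 ± 2.34 points (exact p = 1), with 12.8 ± 2.85% of the ribosomal and 12.9 ± 1.91% of the respiratory chain genes, and its sign varied between replicates. With 10 kb on either side of the gene body it was 1.47 ± 3.98 points (exact p = 1).

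**Figure D4:**
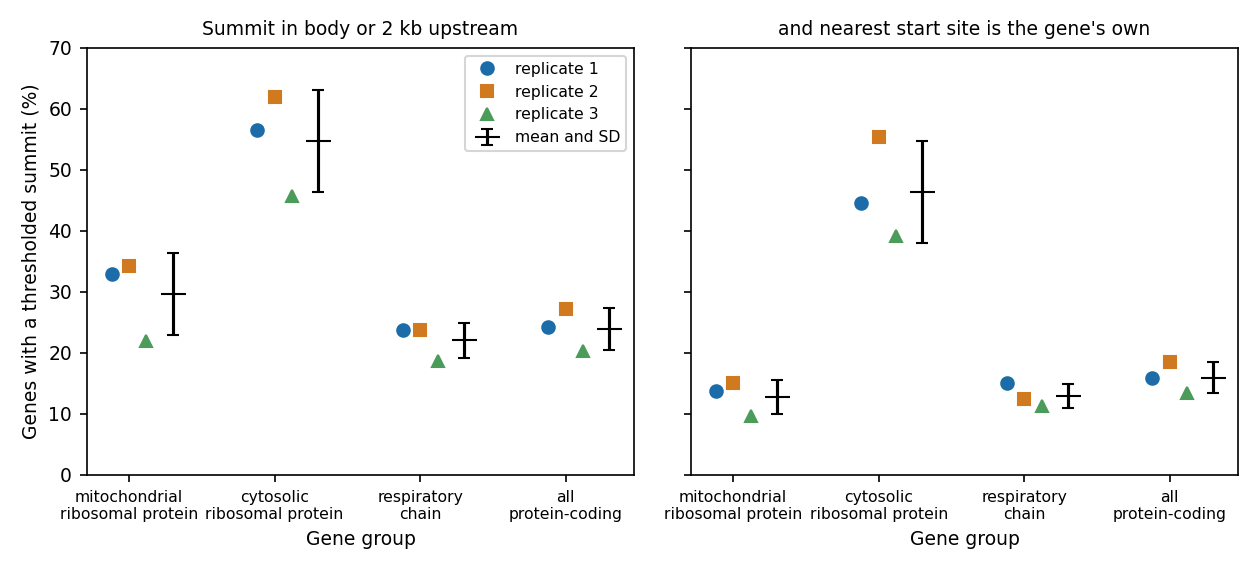
Share of genes (y axis, %) with a thresholded summit in the body or 2 kb upstream (left) and with one nearest their own start (right), for 4 gene groups (x axis); coloured points are the 3 replicates and the black cross is the mean with SD. The mitochondrial ribosomal protein genes lie below the cytosolic ones in every replicate, and on the right at 9.59 to 15.1%, beside the respiratory chain genes.

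Where a summit was nearest the own start, its place upstream also differed from the cytosolic set. The median position was -112, -110 and -109 in the mitochondrial ribosomal protein genes (10, 11 and 7 genes), against -48, -29 and -36.5 in the cytosolic ones. The replicate values did not overlap. All protein-coding genes had medians of -108, -99 and -102, near those of the mitochondrial set, while the cytosolic medians were closer to the start. The summits of all genes spread widely, with quartiles of -226 and 121, -230.5 and 206.5, and -220 and 150.5 in replicates 1, 2 and 3. Counting only summits nearest the own start also limits how far upstream they can lie where a divergent neighbour is close. The difference between the mitochondrial and cytosolic sets was not tested.

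Large and small subunits were alike in share. A core region was in 13 of 47 large-subunit genes (27.7%) and 8 of 26 small-subunit genes (30.8%), against 23.1% of all protein-coding genes. It was nearest the own start in 4 of the 47 and 3 of the 26, against 15.2% of all genes. Numbers up to 36 in mRpL and up to 21 in mRpS follow the bacterial series, and higher ones mostly name proteins added in mitochondria. The share was 13 of 42 for the bacterial numbers (31.0%) and 8 of 31 for the higher ones (25.8%). Regions in all 3 lists were found for 11 of the 42 and 4 of the 31, against 17.5% of all genes. No intervals were computed for these subgroups, and differences between them were not tested. By chromosome arm, core regions were found for 4 of 12 genes on 2L, 3 of 12 on 2R, 7 of 17 on 3L, 5 of 21 on 3R and 2 of 11 on X, and neither X gene's region was near its start. The share of all genes was not counted by arm, so these counts do not set the members apart on any arm.

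A further 52 genes had no core region. Of these, 9 had a summit in 1 list. In replicate 1 alone these were mRpL18 at percentile 39.3, mRpL53 at 19.6, mRpL17 at 6.59 and mRpS22 at 45.1. In replicate 2 alone they were mRpL4 at 29.7, mRpS18B at 55.0, mRpL2 at 6.86, mRpL21 at 47.4 and mRpS24 at 57.1. None was in replicate 3 alone, which had the shortest list. Their ranks were middling or low. The nearest start was the gene's own for mRpL4 at -115, mRpS18B at -68 and mRpS22 at -106. For mRpL53 at -23, CG33155 starts equally far away. In mRpL18, mRpL17, mRpL2, mRpL21 and mRpS24 it belonged to another gene, namely Taz, Tudor-SN, FoxK, rept and Apc2.

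The remaining 43 genes (58.9%) had no summit in any thresholded list. The longer ranked lists hold 35134, 75958 and 33491 candidates and show how far below the limit these genes were. A promoter candidate (summit up to 300 bp before or 100 bp after a start) was present in 0 ranked lists for 19 genes, in 1 for 6, in 2 for 12 and in 3 for 6. The 19 include mRpL12, a stalk protein gene, and mRpL45, whose mammalian counterpart holds the ribosome at the inner membrane. Among the others the best scaled score over the lists had a median of 170.5. In each list the score was that of the candidate with the highest signal, which need not be the highest score near the start. The highest were those of mRpS29 (559, 282 and 651 in replicates 1, 2 and 3), the gene for a GTP-binding protein known in mammals as DAP3, and mRpL47 (277, 623 and 546), against a limit of 830. By these candidates, the 2 genes were the only ones past an IDR of 0.05, which corresponds to a score of 540, and 0 reached 830. Over all 73 genes, 30 (41.1%) had a promoter candidate in all 3 ranked lists, against 20.7% of all genes. The share was 69.6% for cytosolic ribosomal protein genes and 23.75% for respiratory chain genes. Among the 73, it was 29 of 56 with a divergent neighbour (51.8%) and 1 of 17 without one (5.88%). The same shares were 81.5% and 52.6% for the cytosolic genes, and 37.1% and 13.3% for the respiratory chain genes. The share of all genes was not split this way, so the comparison does not allow for divergent neighbours being commoner among the 73.

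The summits lay in AT-rich sequence. The 100 bp at the summits of the 21 genes held 25.9 ± 5.55% G and C (SD over 21 windows, 17 to 37%), against 31.1 ± 8.87% over all 3463 core regions. The promoters themselves are AT-rich: windows of 100 bp centred 100 bp upstream of the start held 27.8 ± 5.86% in the 21 genes with a core region, 31.9 ± 9.69% in the 52 without one and 37.6 ± 11.0% in all genes. A peak's composition and its promoter's cannot be told apart here, since most summits lie in the promoter.

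Motifs were searched as exact letters on both strands of the 100 bp at each summit. ACGTG was in 2 of the 21 windows (9.52%, exact 95% interval 1.17 to 30.4%), those of mRpL20 and mRpL46, against 5.52% of all core regions and 6.81% of the upstream windows of all genes. The interval holds both shares. GCGTG was in 0 of 21, against 5.40% of all core regions and 8.73% of upstream windows, but in 3 of 21 windows of 200 bp (14.3%), against 14.3% of all core regions. TATAA was in 13 of 21 (61.9%, interval 38.4 to 81.9%), in windows that also hold more A and T. It was in 43.7% of all core regions, which the interval contains, and in 31.5% of upstream windows, which lies under it. With windows of 200 bp it was in 17 of 21 (81.0%), against 62.7% of all core regions. Of the upstream windows, TATAA was in 12 of 21 for genes with a core region (57.1%) and 17 of 52 for genes without one (32.7%).

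The counts of the other letters rested on the window. GATAA was in 3 of 21 windows (14.3%), against 24.3% of all core regions and 26.0% of upstream windows. CACTG was in 3 of 21, against 17.0% and 16.7%. TATCGA, which belongs to the DREF element, the site of a regulator of proliferation and mitochondrial genes, was in 0 of 21, against 5.02% and 9.86%. The E-box CACGTG, which contains ACGTG, was in 0 of 21, against 0.722% of all core regions. The E-box with CAGCTG was also in 0, against 2.34%. The full DREF element TATCGATA, which contains TATCGA, was in 0, against 0.866%. The core promoter element GGTCACACT was in 0, against 0.318%. The letters GAGAG were in 0, against 7.31%. With 200 bp, GATAA was in 7 of 21 (33.3%, against 41.1% of all core regions) and CACTG in 7 (33.3%, against 47.9%). TATCGA was then in 4 (19.0%, against 11.7%), CAGCTG in 3 (14.3%, against 7.25%), GAGAG in 3 (14.3%, against 19.2%) and TATCGATA in 1 (4.76%, against 2.45%). No match says only that the letters are not in the window.

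Other genes of mitochondrial translation and gene expression were counted from a list that names translation factors, transcription factors, tko, bonsai and the mitochondrial aminoacyl-tRNA synthetases. Of 23 listed names 6 had no match, and with the 15 synthetase genes 32 genes were measured. A core region was in 4 of the 32 (12.5%), against 23.1% of all genes, and in 0 was it nearest the own start, against 15.2%. All 4 were synthetase genes: CysRS-m with O-fut1 nearest, LeuRS-m with Dhc64C, ProRS-m with Snup and CG42304 at the same distance, and SerRS-m with Nagk. That of LeuRS-m was the strongest, at a mean percentile of 93.9 ± 2.26 (SD, n = 3). The elongation, initiation and release factors, TFAM and the RNA polymerase gene PolrMT had no core region, nor did tko or bonsai.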

How the data were processed

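Anti-GFP ChIP-seq of 3 biological replicates was used as peak lists on dm6. Per the deposited readmes, each replicate's thresholded and ranked lists derive from its filtered alignments and a control, and the thresholded lists also from a further file whose content is not stated. The sources used here name no aligner and no caller of the peaks. The authors' deposited score is the IDR (irreproducible discovery rate) scaled to at most 1000, and it ran from 830 to 1000 in the thresholded lists. The authors' signal score per peak has no stated unit and was used for ranks inside each list. A −log10 score for the global IDR stands beside it in the ranked lists, as deposited. In replicates 1, 2 and 3, 77, 104 and 66 ranked peaks past the limit were absent from the thresholded lists. Median peak width was 340, 340 and 350 bp. The labels give no read depth.

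Single linkage joined summits on the major arms up to 150 bp apart. Regions in 2 or more lists were positioned at their best-ranked summit by percentile in its own list. Start sites and gene bodies came from Ensembl release 115, and sequence from NCBI's assembly of the same build. Shares carry exact binomial 95% intervals, and replicate differences an exact paired sign-flip test. Python 3.11.15, NumPy 2.4.6, SciPy 1.17.1 and matplotlib 3.10.9 were used, and the code was checked on simulated data first. Of the whole-series lists, the conservative one (5302 peaks) served as an alternative. The others were not used, since the sources used here do not say which replicates they compare.

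The genes and lists were chosen with earlier results of these data known. Named with values were the 15 genes with the highest mean percentile, all genes with a core region in 2 lists, with more than 1, or with another gene's start nearest, and those with a summit in 1 list. Sequences were to be shown for up to 8 of the strongest genes whose own start is nearest and which lie outside arm 2R; windows that overlap an annotated exon (mRpL23) were left out. The second sequence set, the spacing bins and the 300 bp rule were added after seeing the data. Alternatives were other support, lists, limits, overlaps, territories and windows, and each replicate left out. A neighbouring gene is not reported here.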

Additional observations from a re-analysis of the deposited data

Results flagged for a closer look

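The authors' conservative whole-series list, which enters no comparison above, held a summit in the body or 2 kb upstream of 8 ribosomal protein genes that have no core region. For 6 of them, mRpS18B, mRpL18, mRpL53, mRpL2, mRpL21 and mRpS24, a summit was in 1 replicate list. For the other 2, mRpS29 and mRpS25, none was, and the conservative summits lay at -504 and -434. In all, 29 of the 73 genes (39.7%) had a summit in that list, against 28.8% of all protein-coding genes.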

How the results depend on the processing

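Of 62 alternative values, 50 stayed within set limits (counts within 1.5 times, shares and positions within 1 SD, motif shares within their interval, and for differences between gene groups the same sign). The 21 genes with a core region became 13 with peaks above the median signal of their list (17.8%, against 14.4% of all genes), 46 with 10 kb on either side (63.0%, against 54.9%) and 7 when the nearest start had to be the gene's own. Within the limits, the count was 29 (39.7%) with ranked peaks at an IDR of 0.05, against 26.9% of all genes. It was also 29 with the conservative list, against 28.8%. Leaving out each replicate gave 15 to 20. The 7 genes with their own start nearest became 4 with regions in all 3 lists (11.3% of all genes), 11 with the conservative list (19.6%) and 12 with ranked peaks at an IDR of 0.05 (17.8%), and 5 to 6 with a replicate left out. The 4 other translation genes became 2 with above-median peaks (14.4% of all genes), and 3 to 4 with a replicate left out. The mean share of 29.7% became 19.2% with above-median peaks (14.9% of all genes), 36.5% at an IDR of 0.05 (28.3%), 84.0% in the whole ranked lists (77.1%) and 64.4% with 10 kb on either side (56.0%), and 27.4 to 33.6% with a replicate left out. The difference from the respiratory chain genes turned to -0.131 points when the nearest start had to be the own one and fell to 1.47 with 10 kb on either side (exact p = 1 for both). Its leave-one-out range was 6.15 to 9.81. The difference of -25.0 points from the cytosolic genes kept its sign, at -11.3 with above-median peaks and -15.0 with 10 kb on either side, and was -25.7 to -23.7 with a replicate left out. The cause of these shifts was not tested. Without read counts, depth limits cannot be set.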

Other observations

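mRpS26 had no thresholded summit in replicate 2, although its promoter candidate there stood at percentile 97.0 of that replicate's ranked list by signal (rank 2260). Its scaled IDR score was 78, against a limit of 830, while the scores in replicates 1 and 3 were 1000 and 995.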
